A study of Homo sapiens with 12 samples.

Results

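Interferon-stimulated genes are the antiviral effector genes that cells switch on when interferon is sensed, and 36 of them were followed here through the open chromatin of KO-52 cells. Their regions were all ATAC-seq peaks within the body of a member gene or 10 kb to either side of it, and a peak shared by the windows of several members counted once. Peaks of the 6 conditions were merged into 355394 common regions, of which 313 belonged to the 36 members, 106 at a member's promoter (within 1 kb of an annotated start site), 26 at the promoter of another coding gene alone and 181 at neither. A member had 2 to 20 regions, with a median of 9. Of the 313 regions, 34 were shared by at least 2 members that are neighbours in the genome, and 37 in all were at the promoter of another coding gene. The comparison set was the 214164 regions in the same kind of window around 20033 protein-coding genes.

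KO-52 is a human acute myeloid leukemia line that carries mutations in both copies of CEBPA, and it was transduced with p42, the full-length isoform of the transcription factor CEBPA, with p30, its N-terminally truncated isoform, or with the vector alone (EV, for empty vector). Each line received DMSO or tunicamycin at 2 µg/mL for 8 h. Tunicamycin blocks N-glycosylation of proteins and thereby stresses the endoplasmic reticulum. There were 2 replicates per condition and 12 libraries in all, but each peak list was called on the 2 pooled replicates, so the comparisons have no replicate spread and no test was possible. All 3 lines share one parental line and keep its own CEBPA mutations, and the study's methods describe its replicates in general as separate samples. The study's methods describe ERT2 fusions of the isoforms with 4-hydroxytamoxifen given to all lines for KO-52 experiments, without tying them to the ATAC-seq by name.

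In DMSO the p42 list had an estimated depth of 30000000 tags, the p30 list 26500000 and the EV list 22200000. After tunicamycin it was 25400000, 23100000 and 25100000 tags, in the same order. A deeper list can call weaker peaks, and the part of depth in the differences below was not tested beyond the alternatives at the end. The promoters of all 7 myeloid and progenitor genes examined (SPI1, MPO, KIT, CD34, CD33, PTPRC and MYB) had a peak in every list. Of genes of other lineages, CD3E and EPCAM also had a promoter peak in every list, ALB had one in the p42 lists alone, and HBB had none, so a promoter peak does not show that a gene is expressed.

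In the interferon pathway, type I interferon signals through the kinases JAK1 and TYK2 to a complex that contains STAT2 and IRF9. This complex binds the interferon-stimulated response element (ISRE), whose core is a pair of GAAA repeats separated by a dinucleotide of any letters. Double-stranded RNA sensors such as RIGI and IFIH1 lie upstream of interferon production and are themselves interferon-induced, which makes the pathway self-amplifying.

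The ISRE core was found more often at the members' promoters than at those of other coding genes. The core, GAAA followed by any 2 bases and GAAA again, was present on either strand within 100 bp of the summit in 15 of the 106 promoter regions (14.2%, 95% Wilson interval 8.77 to 22.0), against 2.08% of the promoter regions of all coding genes. The 15 regions belonged to 15 members, namely OAS2, OAS3, IFIT1, IFIT3, ISG15, ISG20, IFI44, DHX58, STAT2, USP18, HERC5, BST2, IFITM1, GBP1 and SAMD9L. They held 17 sites, counting matches up to 20 bp apart as 1 site, and 13 of these lay within 100 bp of an annotated start site. The sequences below are shown because they are the motif on which the group's known regulation rests, at some of the members whose promoter was called in all 6 lists, and at GBP1 and STAT2, whose ISRE region was not. They are from the hg38 reference, on the strand of the gene, with the matches that lie within 100 bp of the summit in capitals.
IFIT1, chr10:89392497-89392539, plus strand: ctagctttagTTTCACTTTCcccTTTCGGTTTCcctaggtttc
OAS2, chr12:112978511-112978540, plus strand: tagacttcagTTTCAGTTTCctggctctgg
ISG15, chr1:1013365-1013424, plus strand: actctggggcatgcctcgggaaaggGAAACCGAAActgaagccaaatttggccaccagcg
ISG20, chr15:88638937-88638966, plus strand: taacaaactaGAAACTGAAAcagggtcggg
IFI44, chr1:78649761-78649790, plus strand: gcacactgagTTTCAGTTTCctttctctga
BST2, chr19:17405738-17405767, minus strand: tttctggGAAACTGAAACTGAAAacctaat
GBP1, chr1:89065316-89065345, minus strand: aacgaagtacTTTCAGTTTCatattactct
STAT2, chr12:56358971-56359030, minus strand: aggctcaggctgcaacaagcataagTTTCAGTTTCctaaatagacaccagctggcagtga

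Both orientations of the core occur, and IFIT1 and BST2 hold 2 matches in 1 site, which overlap one another in BST2. In ISG15 another match overlaps the one in capitals, but it begins outside the window and stays in lower case, uncounted. The IFIT1 site starts 39 bp upstream of the start of the gene. The STAT2 match lies in the body of the gene, 1091 bp from the nearest start site. Away from all coding promoters the core was found in 9 of 181 regions (4.97%, 2.64 to 9.18), against 3.25% of the corresponding regions of all coding genes, so the interval holds the background there.

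At the members' promoters, regions with an ISRE core were also called in more of the lists. Of the 25 member regions with the core, 18 (72%) had a peak in all 6 lists. The share was 34.5% for all coding-gene regions with the core and 42.7% for the member regions without it. However, 15 of the 25 were at a member's promoter, and promoters are called more often. Away from coding promoters 4 of 9 regions with the core (44.4%) were in all 6 lists. There the share was 36.05% for member regions without the core and 32.5% for coding-gene regions with it. The 9 regions are few, and the difference was not tested. Among the promoter regions with the core, 13 of 15 (86.7%) were in all 6 lists, against 48.1% of coding-gene promoter regions with it. Over all 106 promoter regions of the members, those with the core included, the share was 53.8%. The exceptions among the 15 were GBP1 and STAT2. The GBP1 region over the start of the gene (chr1:89065234-89065418) had 9 tags at its summit in p42 DMSO, 10 in p42 after tunicamycin and 8 in p30 after tunicamycin, and no peak in p30 DMSO or in either EV list. GBP1 encodes an interferon-inducible GTPase that attacks intracellular pathogens, and its start region was thus called in both p42 lists and in 1 of the 4 others. The second STAT2 region (chr12:56358974-56359122) was called only in p42 DMSO, the deepest list, with 12 tags.

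Other motifs were searched in the same windows on both strands, and the letters can overlap those of the ISRE core. The GAS-like motif TTCNNNGAA, a palindrome with a 3-base spacer, was found in 9 of 106 promoter regions (8.49%, 4.53 to 15.4, coding promoters 3.89%). The ETS-IRF composite, GGAA followed by any 2 bases and GAAA, was found in 4 (3.77%, 1.48 to 9.30, coding promoters 1.78%) and AP-1, TGANTCA, in 8 (7.55%, 3.87 to 14.2, coding promoters 7.27%). The C/EBP palindrome TTGCNNCAA was in none of the 106, which allows a share of up to 3.50% by the Wilson interval, where coding promoters had 1.28%. Away from coding promoters AP-1 was in 13 of 181 member regions (7.18%, 4.25 to 11.9), about as frequent as at the members' promoters, whereas 13.1% of the other coding-gene regions had it. The 3 C/EBP matches were near HERC5, IFIT1 and USP18, in regions called in 1 or 2 lists with at most 9 tags.

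Nearly every member had a promoter peak in all conditions. A promoter peak was called for 36 of 36 members in p42 DMSO, p42 tunicamycin and p30 DMSO, and for 35 of 36 in p30 tunicamycin and in both EV lists, where IFI27 had none. For 35 members each of the 6 lists had a promoter peak, and for 34 it was the same region in all of them, against 76.4% and 75.7% of coding genes. These coding shares were not matched for the number of regions or start sites of a gene. With the 5′ end of the gene alone, 28 members had a promoter peak in every list. Counting any region of the window, 35 members had at least 1 in all 6 lists. Other coding genes with the same number of regions would give 34.8. The members without a promoter region shared by all 6 lists were IFI27 and IFI44L. Over the members with a peak there, the median summit of the strongest promoter region was 29, 28 and 25.5 tags in p42, p30 and EV in DMSO, and 25.5, 28 and 26 after tunicamycin. Its median percentile rank by q-value within the list, in which 100 would be the strongest peak, lay between 80.7 and 83.8 in all 6.

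The promoters of STAT2 and IRF7, transcription factors that carry the interferon signal, had the most tags of all members in every list. The strongest region of a member, by q-value, lay more than 1 kb from the 5′ end of the gene, at another annotated start site, in 12 members. For some members it was also at the promoter of another coding gene, so its tags are not the member's alone. These were IFIH1 (GCA), RSAD2 (CMPK2), IFIT5 (LIPA), IRF9 (RNF31), BST2 (MVB12A) and IFITM2 (an unnamed gene). STAT2 had 50 and 47 tags in p42 (DMSO and tunicamycin), 53 and 50 in p30 and 46 and 49 in EV, and ranked at the 98.4 percentile or higher in each list. IRF7, which amplifies type I interferon expression, had 47 and 45 tags in p42, 48 and 47 in p30 and 42 and 46 in EV. IRF9, the DNA-binding partner of STAT2, had 33 to 40 tags. These values were close to each other across the lists, and several other members, such as ISG15 and IFI6, had as many tags as IRF9. IRF1, a factor downstream of interferon gamma, has 4 promoter regions. Its strongest one (chr5:132473020-132473331), 35601 bp from the 5′ end, had 31 and 32 tags in p42, 45 and 41 in p30 and 35 and 45 in EV. The p42 lists were lowest there although the DMSO one was deepest, but the exact Poisson intervals, which cover counting error only, overlapped (21.1 to 44 for p42 DMSO and 32.8 to 60.2 for p30 DMSO). Not all the other IRF1 promoter regions shared this order. One (chr5:132490184-132491177) had 43 and 40 tags in p42, 41 and 38 in p30 and 36 and 44 in EV. Another (chr5:132495748-132497110) had 45 and 43 in p42, 42 and 41 in p30 and 39 and 43 in EV. The last (chr5:132488036-132488328) had 24 and 26 in p42, 25 and 30 in p30 and 24 and 27 in EV. There p42 was the lowest line after tunicamycin and level with EV in DMSO.

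Among the RNA sensors, IFIH1 (MDA5) had 35 and 33 tags in p42, 39 and 43 in p30 and 31 and 44 in EV. RIGI had 27 to 33 and DHX58 (LGP2), which modulates the other sensors, 29 to 39. All 3 sensor promoters were called in all 6 lists.

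The synthetases that make 2-5A, the activator of the antiviral RNase L, had weaker promoters. OAS2 had 23 to 29 tags, OAS1 14 to 18 and OAS3 13 to 18. OASL, an OAS relative that lacks synthetase activity, had 15 and 12 tags in p42, 17 and 13 in p30 and 8 and 14 in EV. The EV DMSO value was the lowest of the 6, with a Poisson interval of 3.5 to 15.8 that overlaps the 9.9 to 27.2 of p30 DMSO. The exonuclease ISG20 had 33 to 38 tags in 5 lists and 45 in EV after tunicamycin.

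Of the IFIT proteins, IFIT1 binds viral RNA that lacks host cap methylation. The strongest IFIT1 promoter region (chr10:89393051-89393307) had 34 and 18 tags in p42, 24 and 18 in p30 and 17 and 21 in EV. Its p42 DMSO value stood above the other 5, at the 93.5 percentile of its list against 68.4 to 81.6, with a Poisson interval of 23.5 to 47.5 that overlaps those of p30 DMSO (15.4 to 35.7) and of p42 after tunicamycin (10.7 to 28.4). The IFIT1 region with the 2 ISRE matches was called in all lists, with 25 and 23 tags in p42, 28 and 24 in p30 and 18 and 17 in EV. IFIT2 had 21 to 29 tags, IFIT3 19 to 27 and IFIT5 26 to 33.

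The dynamin-like GTPases MX1 and MX2, which trap viral nucleocapsids, had 15 to 21 and 28 to 35 tags, and GBP2 had 29 to 35. The strongest GBP1 promoter region, 322 bp upstream of the gene, had 16 and 7 tags in p42, 10 and 12 in p30 and 9 and 12 in EV. With tunicamycin its rank fell from the 72.8 to the 12.9 percentile in p42, while it went from 39.8 to 54.7 in p30 and from 38.4 to 53.0 in EV. The Poisson intervals of the p42 counts overlapped (9.1 to 26 and 2.8 to 14.4).

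ISG15 is a ubiquitin-like protein, HERC5 the ligase that attaches it and USP18 the protease that removes it and dampens receptor signaling. ISG15 had 34 to 42 tags, HERC5 27 to 36 and USP18 20 to 25, each with a peak in all 6 lists. Among the membrane factors, BST2 (tetherin) had 21 to 29 tags, IFITM1 19 to 23, IFITM2 21 to 30, IFITM3 14 to 22 and RSAD2 (viperin) 31 to 40. IFITM1, IFITM2 and IFITM3 lie next to each other and share regions.

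Of the other effectors, IFI6 had 34 to 41 tags, IFI35 23 to 29, TRIM22 23 to 36 and SAMD9L 20 to 31. IFI44 had 21 and 19 tags in p42, 31 and 29 in p30 and 19 and 31 in EV. The p42 lists and EV DMSO were low for IFI44, with overlapping Poisson intervals (13 to 32.1 for p42 and 21.1 to 44 for p30 in DMSO). XAF1, a pro-apoptotic protein, had a weak promoter with 13 and 8 tags in p42, 14 and 9 in p30 and 9 and 8 in EV. It was lower after tunicamycin in each line, by 1 to 5 tags, and within counting error each time.

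IFI27 and IFI44L were the 2 members whose promoters were not shared by all lists. IFI27, a small mitochondrial and nuclear membrane protein, had 2 regions in all. Its promoter region (chr14:94115093-94115471) lies at a start site inside the gene, 10509 bp from the 5′ end, and had 8 and 10 tags in p42, 6 in p30 DMSO and no peak in p30 tunicamycin or in EV. At IFI44L the region over the 5′ end of the gene (chr1:78619690-78620233) had no peak in either p42 list, while it had 9 and 11 tags in p30 and 11 and 11 in EV. Another promoter region, 965 bp from the 5′ end (chr1:78620834-78620916), was called in p42 DMSO alone, with 9 tags. So was a region at 8721 bp (chr1:78628601-78628657), with 6 tags. The region at a start site 16520 bp downstream (chr1:78636382-78636506) had 8 and 10 tags in p42, 4 and 7 in p30, none in EV DMSO and 5 in EV after tunicamycin. All of these peaks were weak. Both p30 lists and the EV tunicamycin list had one over the 5′ end and one at 16520 bp.

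Set beside other coding genes, the members' strongest promoter regions ranked somewhat lower in p42 than in p30. In DMSO 15 of 36 members (41.7%, 27.1 to 57.8) had the higher percentile in p42, compared with 61.6% of 13895 promoter regions of the other coding genes. The median difference was −1.001 percentile points for members and 1.11 for the others. After tunicamycin 13 of 35 (37.1%, 23.2 to 53.7) were higher in p42, against 59.1%. In p30 against EV, 26 of 34 (76.5%, 60.004 to 87.6) were higher in p30 in DMSO, against 59.2%, and 20 of 35 (57.1%, 40.9 to 72.0) after tunicamycin, against 45.4%. In p42 against EV the share was 23 of 34 (67.6%, against 69.0%) in DMSO and 15 of 35 (42.9%, 28.0 to 59.1, against 55.5%) after tunicamycin. These are shares of genes within 1 pair of pooled lists, the comparisons share lists, and the intervals say nothing of library variation.

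Over all 313 regions, p42 DMSO had the most peaks, as it did over all coding windows. A peak was called in 233 member regions in p42 DMSO (74.4%, coding windows 71.4%), 204 in p30 DMSO (65.2%, 58.5%) and 189 in EV DMSO (60.4%, 53.2%). After tunicamycin the numbers were 208 for p42 (66.5%, 59.4%), 195 for p30 (62.3%, 52.2%) and 191 for EV (61.0%, 54.7%). Among members p30 tunicamycin, at 195, was slightly above the EV lists at 189 and 191, whereas it was the lowest list over coding windows. The members' difference between p30 and EV after tunicamycin was 1.28 points (−3.81 to 6.36). That interval holds the −2.49 points of coding windows. The member regions were called more often than the background in each list, but 42.2% of them were at a coding promoter, against 18.7% of coding windows, and promoters are called more often. With the coding shares at the members' mix of promoter and other regions, the background would be 73.6% in p42 DMSO, 62.5% in p30 DMSO and 57.7% in EV DMSO, and 63.1%, 56.8% and 59.2% after tunicamycin, each of them within the Wilson interval of the members' share. In total 141 member regions (45.0%, 39.6 to 50.6) were called in all 6 lists, against 35.6% of coding windows and 41.2% at the members' mix, and 75 (23.96%, 19.6 to 28.99) in 1 list, against 31.7% and 28.4%. Of the members' promoter regions 57 of 106 (53.8%, 44.3 to 63.0) were in all 6 lists, against 54.97% of coding promoters, and of the regions at no coding promoter 66 of 181 (36.5%, 29.8 to 43.7) were, against 31.1%. Counted by gene, members had 159 gene and region pairs in all 6 lists, where other coding genes with the same number of regions would give 147.4.

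**Figure D1:**
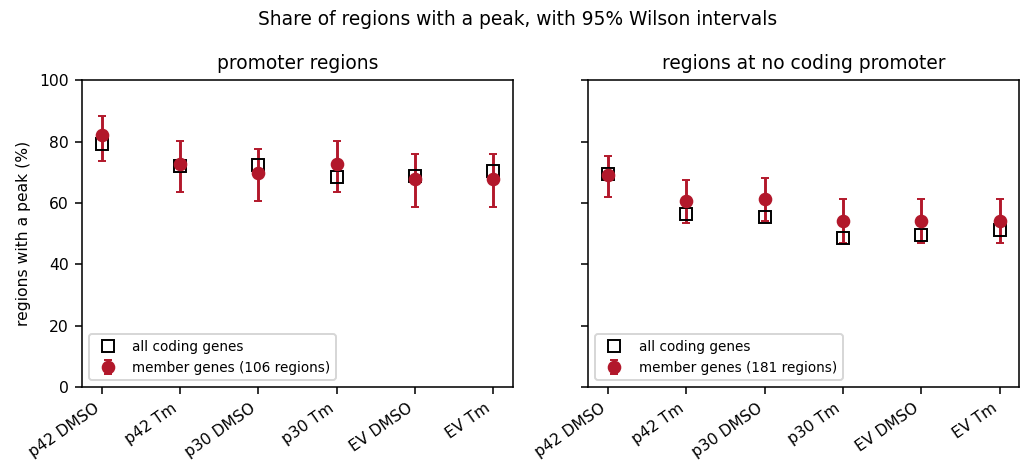
Share of regions with a peak in each of the 6 lists, in percent, at promoters (left) and at no coding promoter (right), for the members (red points with 95% Wilson intervals) and all coding genes (open squares). The intervals hold the background at promoters and away from them in all 6 lists, and away from promoters the members lie above it in each list except p42 DMSO (69.1% against 69.6%).

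Between groups of members the share of regions called in all 6 lists ran from 36.7% to 56.7%. It was 35.6% of coding windows and 41.2% at the members' mix of promoter and other regions. The groups are small, and the differences between them were not tested. The 4 transcription factors had a peak in all 6 lists in 17 of 30 regions (56.7%) and the other effectors in 35 of 67 (52.2%), while the ISG15 system had 11 of 30 (36.7%) and the MX and guanylate-binding GTPases 16 of 42 (38.1%). IRF1 alone held 20 of the 30 transcription factor regions and 11 of their 17 in all 6 lists. Genes with 20 regions had 7.24 such regions on average. IFI35 had 8 of 13, where genes with as many had 5.21. At the other end ISG20 had 2 of 12 where the average was 4.85, GBP2 3 of 13 where it was 5.21, and RIGI and USP18 2 of 9 each where it was 4.03.

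The comparison of p42 and p30 addresses whether the isoforms leave different chromatin at these genes. In DMSO 59 member regions (18.8%, 14.9 to 23.6) were called in p42 but lacked a call in p30, and 30 (9.58%, 6.80 to 13.4) the reverse. The same classes held 24% and 11.1% of the regions of all coding genes, and 21.4% and 10.3% at the members' mix of promoter and other regions, which the intervals hold. At the members' promoters 19.8% were called in p42 and not in p30, against 15.0002% of coding promoters, while at no coding promoter it was 19.3%, against 26.1%. The comparison at the members' mix joins these opposite departures, so it does not show that either class was near its background. The share of member regions with a peak was 9.27 points higher in p42 (3.45 to 15.1), an interval that holds the 12.9 points of coding windows. When all lists were shortened to equal size, the member difference was 0.319 points. Of the 36 members, 19 had more regions called in p42, 6 had fewer and 11 had as many, where other coding genes with the same number of regions would give 22.0, 5.84 and 8.15. After tunicamycin 48 regions (15.3%, 11.8 to 19.7, coding 16.8%) were called in p42 and not in p30, and 35 (11.2%, 8.15 to 15.2, coding 9.57%) the reverse, a difference of 4.15 points, which became −4.47 points with lists of equal size. Most regions called in 1 list of a pair were weak: the median percentile of the 59 was 26.3, and 11 of them were above the 50 percentile of the p42 list.

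Against EV in DMSO, p42 had 67 member regions of its own (21.4%, 17.2 to 26.3, coding 26.5%) and EV 23 (7.35%, 4.95 to 10.8, coding 8.36%). For p30 it was 38 (12.1%, 8.97 to 16.2, coding 13.8%) and for EV 23 (7.35%, coding 8.54%). After tunicamycin p42 had 42 (13.4%, 10.1 to 17.6, coding 15.9%) and EV 25 (7.99%, 5.47 to 11.5, coding 11.2%), and p30 had 35 (11.2%, 8.15 to 15.2, coding 8.87%) and EV 31 (9.90%, 7.07 to 13.7, coding 11.4%). The share of regions with a peak was higher than in EV by 14.1 points for p42 and 4.79 for p30 in DMSO, and by 5.43 and 1.28 after tunicamycin. With lists of equal size the differences were 1.28 points for p42 and 0.958 for p30 in DMSO, and 0.319 and 4.79 after tunicamycin. Across coding windows p30 minus EV was −2.49 points after tunicamycin, within the interval of the members' 1.28 points (−3.81 to 6.36).

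Regions called in both lists of one line and in neither list of another do not rest on 1 list. There were 17 of these for p42 over p30 (5.43%, coding windows 6.36%), in 14 members, where other coding genes with the same number of regions would give 15.03. With lists of equal size the number was 9 in place of 17. Of the 17, 4 were at promoters and 13 were also without a peak in EV, splits that were not counted over coding-gene regions of this class. The strongest was over the last part of IFI35 (chr17:43014245-43014791), a region with an AP-1 match, with 25 tags in p42 DMSO and 17 after tunicamycin and no peak in the 4 other lists. The next were 9447 bp upstream of RSAD2 (chr2:6855965-6856171, 16 and 10 tags), in an intron of IFIT1 (chr10:89400023-89400252, 13 and 9), in an intron of RIGI (chr9:32468792-32469168, 10 and 8) and in an intron of OASL (chr12:121026727-121026970, 10 and 8). All 5 were called in the p42 lists alone. Over EV, p42 had 24 regions (7.67%, coding 6.93%) in 21 members, where 15.8 would be given by genes with the same number of regions, and 15 regions with lists of equal size. They included IFI27 at its promoter and a region in an intron of IFI44 with an ISRE core (chr1:78655696-78655854), which had 11 and 12 tags in p42, 10 and 7 in p30 and no peak in EV.

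In the other direction, p30 over p42, there were 10 regions (3.19%, coding 2.11%) in 8 members, where 5.81 would be given by genes with the same number of regions. Of these, 5 were at promoters, 7 also had a peak in at least 1 EV list and 3 held an AP-1 match. The same splits were not counted over coding-gene regions of this class, so they have no background to be read against. At GBP2 a region 1017 bp into the gene (chr1:89149382-89149518) had 10 and 8 tags in p30 and 7 in EV after tunicamycin. At IFIT1 a region 509 bp upstream (chr10:89391985-89392109), with an AP-1 match, had 13 and 12 tags in p30 and 13 in EV after tunicamycin. It lies next to a region called in all 6 lists (chr10:89392285-89392712), with 25 and 23 tags in p42. At IFIT3 a region of this class (chr10:89333186-89333310) lies next to one of the p42 over p30 class (chr10:89333439-89333582). Such neighbouring calls need not be separate elements. The region over the 5′ end of IFI44L was in this class too, though p42 DMSO had a peak 965 bp from that end. So were a region downstream of GBP2 (chr1:89102176-89102293, 6 and 9 tags in p30) and one at RSAD2 (chr2:6878698-6878836, 9 and 10).

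p30 over EV had 9 regions (2.88%, coding 1.74%) in 10 members, where 4.95 would be given. EV over p42 had 4 (1.28%, coding 2.01%) and EV over p30 had 5 (1.60%, coding 1.41%). A region 3307 bp upstream of XAF1 (chr17:6752089-6752196) was called in the EV lists alone, with 8 tags in DMSO and 12 after tunicamycin, and so was one in an intron of TRIM22 (chr11:5712652-5712751, 6 and 8 tags).

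With tunicamycin, fewer member regions were gained than lost in p42 and p30, and about as many in EV. In p42 the treatment gained 22 regions (7.03%, 4.69 to 10.4, coding 8.48%) and lost 47 (15.02%, 11.5 to 19.4, coding 20.4%). In p30 it gained 26 (8.31%, 5.73 to 11.9, coding 8.1%) and lost 35 (11.2%, 8.15 to 15.2, coding 14.4%), and in EV it gained 29 (9.27%, 6.53 to 13.0, coding 11.2%) and lost 27 (8.63%, 5.996 to 12.3, coding 9.67%). The share of member regions with a peak fell by 7.99 points in p42 and by 2.88 in p30 and was 0.64 points higher in EV. With lists of equal size these changes were −3.83, 0.958 and −2.88 points, so the sign turned in p30 and EV. The estimated depth was lower after tunicamycin in p42 and p30 and higher in EV. A single region was gained in all 3 lines (0.319%, coding 0.199%), at an internal start site of ISG20 (chr15:88647778-88647895). It had 9 tags in p42, 8 in p30 and 7 in EV. None was lost in all 3 (coding 0.487%). Other coding genes with the same number of regions would give 0.713 members with such a gain and 1.74 with such a loss.

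The promoters of most other interferon pathway genes had a peak in every list too. Of 30 other genes of the pathway, 25 (83.3%, coding genes 76.4%) had a promoter peak in all 6 lists, including IFNAR1 and IFNAR2, the subunits of the type I receptor, and JAK1 and TYK2, the kinases that carry its signal. The promoters of the ligand genes IFNB1 and IFNA2 were among them. IFNA1, IFNG, IFNL1 and the receptor gene IFNLR1 had no promoter peak in any list, and TLR7, an endosomal RNA sensor, had one in p42 DMSO alone. The 372 regions of these genes had a peak in all 6 lists in 47.3% of cases, against 35.6% of coding windows, and 25.5% of them were at a coding promoter, against 18.7%. In DMSO 66 of them (17.7%, coding 24%) were called in p42 and not in p30, and 49 (13.2%, coding 11.1%) in p30 and not in p42.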

How the data were processed

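ATAC-seq was performed by the authors in 12 libraries of KO-52 cells. Per the labels, reads were trimmed with Trim Galore 0.6.6, aligned to hg38 with Bowtie2 2.4.4, freed of duplicates with Picard and used for peak calling with MACS2 on the 2 pooled replicates of each condition. The sources used here do not state a Tn5 shift or a mitochondrial filter. The deposited lists give each peak's fold enrichment, a ratio to the local background, and its −log10 p and −log10 q (lowest 1.30, a q-value of 0.05), none of them normalized between lists.

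Fold and −log10 p were solved for the tags at the summit and the background. Tags came out whole, within 0.01 in −log10 p, for 100% of peaks. Depth was estimated from the lowest background and a genome of 2700000000 bp. Peaks on the main chromosomes that overlapped or touched were merged, and a region had a peak in a list if one of its peaks lay in it. Genes were from GENCODE release 44. Shares have 95% Wilson intervals, which cover the counting of regions only. The coding share at the members' mix weights the coding shares at and away from promoters by the members' numbers of both, a choice made after the values were seen. Members were set beside the mean of all other coding genes with the same number of regions (at least 249 genes each). Motifs were exact matches within 100 bp of the summit of the tallest peak. Sequences were read from hg38 with 25 bp on each side of the match, or at most 30 bp in all where the stretch touched an exon.

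All members were named, with the 5 strongest regions of each line-specific class, and the few regions beyond these were chosen after their values were seen. The members, gene lists and motifs were chosen with earlier results of these data known. No test was run, since each condition has 1 list. The pileup solution recovered 100% of 4844 simulated peaks. Python 3.11.15, numpy 2.4.6, scipy 1.17.1 and matplotlib 3.10.9 were used. Some items are not reported here.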

Additional observations from a re-analysis of the deposited data

Results flagged for a closer look

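The share of member regions with a peak moved in opposite directions with tunicamycin in different lines, but the directions in p30 and EV depended on the processing. It changed by −7.99 percentage points in p42 and by −2.88 in p30, and by 0.639 in EV. With lists of equal size the changes were −3.83, 0.958 and −2.88, in the same order. In EV the change was also negative in the gene body alone (−2.48), with 25 kb to either side (−0.64) and when peaks had to cover 50% of a region (−0.958), and in p30 it was 0.319 at a −log10 q of at least 10. Each line has 1 list per treatment, so the difference between the lines was not tested, and the regions of all coding genes moved in the same directions, by −11.9, −6.30 and 1.48 points. The estimated depth moved the same way, from 30000000 to 25400000 tags in p42, from 26500000 to 23100000 in p30 and from 22200000 to 25100000 in EV, and its part in the result was not tested.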

How the results depend on the processing

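Of 86 alternative values, 73 stayed within the 95% interval of the reported value (within 1.5 times for counts) and 13 moved beyond it. These limits are wide for small differences, and a change of sign could stay within them. With lists of equal size the tunicamycin change went from −2.88 to 0.958 points in p30 and from 0.639 to −2.88 in EV. Both counted as staying, as did 28 and 29 members with a promoter peak in every list in place of 35. With the same number of peaks in every list, the difference in share of member regions with a peak was 0.319 points for p42 over p30 in DMSO, 1.28 for p42 over EV in DMSO, −4.47 for p42 over p30 and 0.319 for p42 over EV after tunicamycin, so these differences depend on the length of the lists. Under this setting, chosen here after seeing the data, the regions in both p42 lists and neither list of another line numbered 9 over p30 and 15 over EV. At a −log10 q of at least 10, p42 exceeded EV in DMSO by 6.39 points and 21.4% of member regions were in all 6 lists. When peaks had to cover 50% of a region, 27.2% were in all 6 lists and tunicamycin changed the share in p42 by −17.6 points. The ISRE core was in 3.51% of member regions within 50 bp of the summit (coding windows 1.20%), 12.1% over the whole region (3.21%) and 3.19% for a longer form in which CT follows the core (0.247%). A threshold scaled to depth moved none of the reported values beyond its interval. Members with a promoter peak in every list numbered 28 with the 5′ end of the gene alone and 29 at a −log10 q of at least 10. No paired analysis was possible because the lists were called on pooled replicates, and for the same reason leaving out each replicate could not be run.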
